A study of Mus musculus with 17 samples.

Results

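Sfpq, Nono and Pspc1 are the 3 genes described here, which encode the mammalian DBHS family of RNA- and DNA-binding proteins that build paraspeckles. The family was chosen by measured values, the levels of Sfpq at each dose against control, since Sfpq had been seen to rise at the lower X-ray doses and to fall at 3.0 Gy in these same arrays. The members are all probe sets of the array that the platform annotation gives to Sfpq, Nono or Pspc1 alone, which made 12 of 45101 probe sets, 6 for Sfpq, 4 for Nono and 2 for Pspc1, and 3 of the 18193 genes with such a probe set. Whole blood was taken from female C57BL/6JJcl mice, an inbred strain, at 8 weeks of age. The mice were sampled 24 h after total-body X-irradiation with 0.5, 1.0 or 3.0 Gy (4 mice per dose), or after 0 Gy in the unirradiated controls (5 mice). Each mouse gave 1 array, and the labels name no engineered allele. The values are log2 levels after RMA (robust multi-array average) as the authors deposited them, so a difference of 1 on this scale is a doubling. Values after ± are SDs for group means (n = 5 for control, n = 4 for each dose) and standard errors for differences.

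DBHS proteins pair with each other through their RNA-recognition and coiled-coil regions, and such pairs coat the long non-coding RNA Neat1 to form paraspeckles, nuclear bodies that hold back proteins and certain RNAs. Outside paraspeckles the same proteins take part in transcription, splicing and 3′ end processing of RNA. SFPQ and NONO are also known, from human and mouse cells, to bind near DNA double-strand breaks and to help rejoin them by non-homologous end joining, the repair route that uses the Ku proteins. Blood is a mixture of cells, of which lymphocytes and other nucleated leukocytes carry nuclear bodies, while platelets and mature mammalian red cells have no nucleus.

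The promoter sequences of the 3 genes are shown because the transcripts moved together at 3.0 Gy. Each run covers 250 bases before and 50 bases after the RefSeq gene start in the mouse build GRCm38.p6, 5′ to 3′ on the gene's own strand, and capitals mark matches to the motifs searched on both strands. Sfpq lies at chr4:127021051-127021350 on the plus strand, Nono at chrX:101429401-101429700 on the plus strand and Pspc1 at chr14:56778269-56778568 on the minus strand.
Sfpq: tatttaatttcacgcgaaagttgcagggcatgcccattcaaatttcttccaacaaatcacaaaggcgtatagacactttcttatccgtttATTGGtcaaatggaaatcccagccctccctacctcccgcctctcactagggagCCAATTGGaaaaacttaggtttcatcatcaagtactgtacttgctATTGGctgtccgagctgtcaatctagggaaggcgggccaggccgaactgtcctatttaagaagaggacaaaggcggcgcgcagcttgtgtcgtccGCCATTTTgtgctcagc
Nono: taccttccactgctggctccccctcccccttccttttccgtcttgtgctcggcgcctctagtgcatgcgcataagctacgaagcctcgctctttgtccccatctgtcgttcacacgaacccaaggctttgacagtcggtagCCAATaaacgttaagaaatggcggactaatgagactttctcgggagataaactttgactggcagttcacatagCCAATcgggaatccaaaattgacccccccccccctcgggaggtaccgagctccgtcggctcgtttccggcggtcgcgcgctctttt
Pspc1: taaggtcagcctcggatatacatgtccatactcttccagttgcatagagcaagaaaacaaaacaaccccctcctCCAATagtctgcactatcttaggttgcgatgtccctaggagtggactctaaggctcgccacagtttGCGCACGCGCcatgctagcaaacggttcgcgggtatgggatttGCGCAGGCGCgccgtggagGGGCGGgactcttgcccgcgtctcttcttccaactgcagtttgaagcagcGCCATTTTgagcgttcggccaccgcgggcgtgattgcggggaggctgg
The letters CCAAT, the core of the NF-Y motif, occurred 4 times in the Sfpq promoter (2 of the matches overlap, on opposite strands), 2 times in that of Nono and 1 time in that of Pspc1, and 37.4% of 32841 RefSeq mouse promoters of this length held at least 1. GCCATNTT, the core of the YY1 motif, was found 1 time each in the Sfpq and Pspc1 promoters, just after the start, against 6.05% of all promoters. The NRF1 motif, GCGC followed by GCGC after any 2 bases, was found 2 times in the Pspc1 promoter (6.23% of all promoters held it), and GGGCGG, the Sp1 motif, 1 time in the same promoter (35.7%). The p53 site was searched as 2 exact half-sites, RRRCWWGYYY, up to 13 bases apart. Here R stands for A or G, W for A or T and Y for C or T. The site had 0 matches in these windows and was found in 0.0731% of all promoters. With a pattern this rare, the absence of a match does not bear on p53. The motifs were chosen after the sequences had been seen, and a match is a description of the letters, not a bound site.

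Arrays of the same group correlated with a median r of 0.987 over all probe sets, and array medians lay between 3.47 and 3.57. A gene was represented by its brightest probe set and tested when that probe set lay above the array median in at least 4 arrays, which left 12696 genes. Differences were tested with limma over all 17 arrays, with p-values adjusted by the Benjamini-Hochberg method over those genes and a threshold of 0.05. The array's control probe sets for 18S ribosomal RNA were higher at 0.5 and 1.0 Gy than in control or at 3.0 Gy. They averaged 10.52 ± 0.49 in control, 12.69 ± 0.77 at 0.5 Gy, 13.28 ± 0.28 at 1.0 Gy and 10.68 ± 0.14 at 3.0 Gy. Cell markers also moved with dose, and their values stand beside the results below.

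Sfpq, the member whose values chose the family, was about 2-fold higher at the lower doses and nearly 4-fold lower at 3.0 Gy than in control on its brightest probe set, 1423795_at. Its level was 5.70, 5.05, 4.57, 5.02 and 4.70 in the 5 control mice. It was 5.78, 6.23, 6.02 and 5.84 at 0.5 Gy, 6.05, 6.29, 5.62 and 6.14 at 1.0 Gy, and 2.99, 3.65, 3.01 and 2.81 at 3.0 Gy. All 4 mice at 0.5 Gy lay above every control mouse (as for 6.66% of all tested genes), 3 of 4 did at 1.0 Gy, and all 4 mice at 3.0 Gy lay below every other mouse (22.9% of genes had all of them below control). The differences from control were 0.96 ± 0.21 at 0.5 Gy (1.95-fold), 1.02 ± 0.21 at 1.0 Gy (2.02-fold) and -1.89 ± 0.21 at 3.0 Gy (3.71-fold lower). They are given without a test because they chose the gene. At 3.0 Gy this probe set lay below the array median in 3 of 4 arrays, so its fold there is limited by signal. By size, Sfpq was 269th highest at 0.5 Gy, 445th highest at 1.0 Gy and 249th lowest at 3.0 Gy of 12696 genes.

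On Sfpq 1423795_at the 3.0 Gy mice stood further from the other doses than from control. Sfpq differed by -2.91 ± 0.22 between 3.0 and 1.0 Gy (7.52-fold lower) and by -2.86 ± 0.22 between 3.0 and 0.5 Gy (7.24-fold lower), which made it the 17th and the 19th lowest of 12696 genes in those comparisons, again without a test. Only 3 of 12696 genes (0.0236%) were called higher at both lower doses and lower at 3.0 Gy, and this count describes the choice rather than tests it. The other 2 were Scd2, a fatty acid desaturase (0.88, 1.17 and -0.78 at 0.5, 1.0 and 3.0 Gy), and Rps6ka3, a protein kinase of growth-factor signalling (0.79, 0.67 and -1.20). The 3 comparisons with control share the same 5 control mice.

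The rule did not use the difference between 1.0 and 0.5 Gy, but it used the values of both groups against control. Being chosen for a rise at both doses favours like levels there, so the test below cannot decide whether the doses differ. Sfpq averaged 6.02 ± 0.29 at 1.0 Gy and 5.97 ± 0.20 at 0.5 Gy, a difference of 0.05 ± 0.22 with a 95% interval from -0.40 to 0.51 (limma, adjusted p = 0.996). No difference between the lower doses was detected on 1423795_at within that interval. Over the 6 Sfpq probe sets the difference ran from -0.13 to 0.63. In this comparison 0.0158% of all genes were called.

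**Figure D1:**
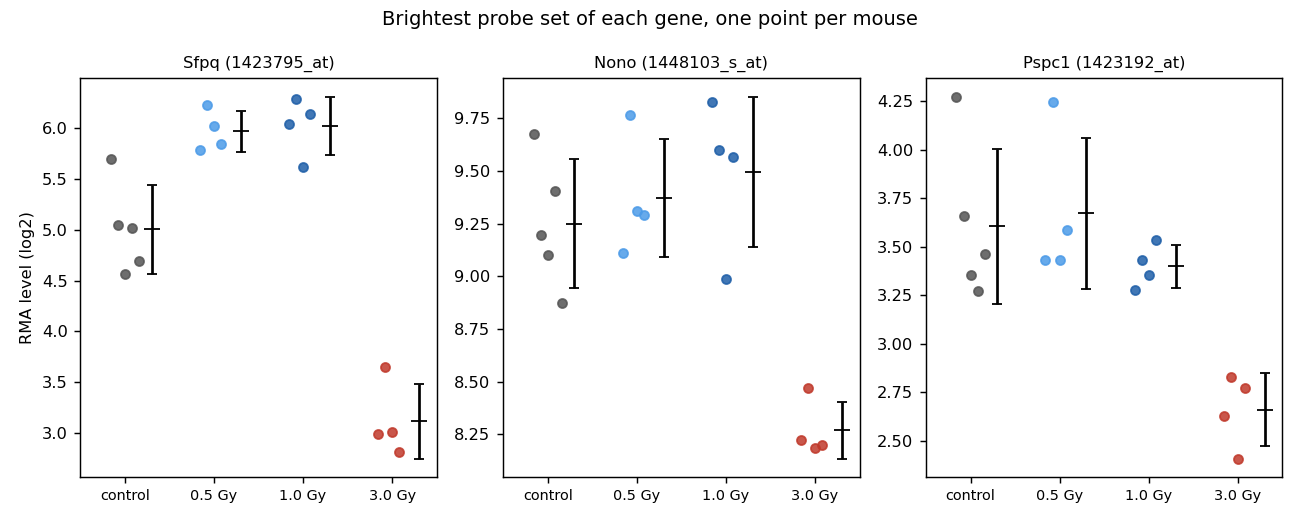
Log2 RMA level (y axis) of the brightest probe set of Sfpq, Nono and Pspc1 in control and at 0.5, 1.0 and 3.0 Gy (x axis), with 1 point per mouse and the group mean ± SD beside the points; each panel has its own y range. The 4 mice at 3.0 Gy lie below every other mouse in all 3 panels, and the higher level at 0.5 and 1.0 Gy is seen for Sfpq.

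Nono, the usual partner of SFPQ, fell about 2-fold at 3.0 Gy and was not called at the lower doses. Its brightest probe set, 1448103_s_at, was among the brightest on the array (98.5th percentile of all probe sets). Its level was 9.68, 9.20, 9.10, 9.40 and 8.87 in the control mice. It was 9.11, 9.77, 9.31 and 9.29 at 0.5 Gy, 9.83, 9.60, 8.99 and 9.57 at 1.0 Gy, and 8.22, 8.47, 8.18 and 8.20 at 3.0 Gy. The 3.0 Gy mice lay below all others (22.9% of tested genes had all of them below control), while the mice of the lower doses lay among and just above the controls. Nono averaged 8.27 ± 0.14 at 3.0 Gy and 9.25 ± 0.31 in control, a difference of -0.98 ± 0.18 (limma, adjusted p = 0.000129; 1.97-fold lower).

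Of all tested genes, 49.1% were called at 3.0 Gy against control and 29.2% were called lower (2534 genes higher and 3703 lower). Repeating the quantile normalization turned that split to 3686 higher and 3329 lower, with Nono at -0.95. The Nono differences from control were 0.12 ± 0.18 at 0.5 Gy (95% interval -0.25 to 0.49, limma adjusted p = 0.773) and 0.25 ± 0.18 at 1.0 Gy (-0.12 to 0.61, adjusted p = 0.389), doses at which 10.2% and 17.3% of all genes were called. On the brightest Sfpq probe set, whose values chose the family, the differences at those doses lay above both intervals. The median of the Sfpq probe sets gave 0.15 at 0.5 Gy and 0.27 at 1.0 Gy against control, inside the Nono intervals. Whether the genes differ in response was not tested. Against the other doses Nono gave -1.23 ± 0.19 at 3.0 Gy relative to 1.0 Gy (limma, adjusted p = 8.64e-05; 2.34-fold lower) and -1.10 ± 0.19 relative to 0.5 Gy (adjusted p = 0.000201; 2.15-fold lower), where 22.7% and 20.9% of all genes were called lower. The 1.0 and 0.5 Gy groups differed by 0.13 ± 0.19 (-0.26 to 0.51, adjusted p = 0.993).

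Pspc1, which encodes the DBHS protein named for the paraspeckle itself, also fell about 2-fold at 3.0 Gy, on a dim probe set. Its brightest probe set, 1423192_at, had levels of 4.27, 3.66, 3.35, 3.27 and 3.46 in the control mice. It had 3.43, 4.25, 3.43 and 3.58 at 0.5 Gy, 3.28, 3.43, 3.35 and 3.54 at 1.0 Gy, and 2.63, 2.83, 2.41 and 2.77 at 3.0 Gy. Again every 3.0 Gy mouse lay below all others, and the remaining groups overlapped; 22.9% of tested genes had all 3.0 Gy mice below control. Pspc1 averaged 2.66 ± 0.19 at 3.0 Gy and 3.60 ± 0.40 in control, a difference of -0.94 ± 0.19 (limma, adjusted p = 0.000381; 1.92-fold lower), where 29.2% of all genes were called lower.

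The signal of Pspc1 rose above the array median in only 5 of 17 arrays, 2 of control, 2 at 0.5 Gy, 1 at 1.0 Gy and 0 at 3.0 Gy. It therefore entered the tested set through the groups in which it was higher; with no filter on dim probe sets its adjusted p at 3.0 Gy against control was 0.000441 (limma). RMA pulls dim probe sets towards background, which understates their fold changes. The differences from control were 0.07 ± 0.19 at 0.5 Gy (-0.33 to 0.46, adjusted p = 0.898) and -0.20 ± 0.19 at 1.0 Gy (-0.60 to 0.19, adjusted p = 0.523). At 3.0 Gy Pspc1 gave -0.74 ± 0.20 relative to 1.0 Gy (limma, adjusted p = 0.00765; 1.67-fold lower) and -1.01 ± 0.20 relative to 0.5 Gy (adjusted p = 0.000742; 2.02-fold lower), and 1.0 against 0.5 Gy gave -0.27 ± 0.20 (-0.69 to 0.14, adjusted p = 0.972).

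The level of Nono was set against that of Pspc1 within each array, on their brightest probe sets. The difference Nono minus Pspc1 averaged 5.61 ± 0.14 at 3.0 Gy and 5.65 ± 0.30 in control (-0.04, exact permutation test, two-sided, p = 0.857). It was 5.70 ± 0.15 at 0.5 Gy (0.05 above control, exact p = 0.794) and 6.10 ± 0.38 at 1.0 Gy (0.45 above control, exact p = 0.103). Adjusted over these 3 comparisons, the exact permutation p-values were 0.857, 0.857 and 0.310 in the order given. No unequal change of Nono and Pspc1 was detected on these probe sets. With the other probe sets of both genes the 3.0 Gy value ran from -1.28 to 0.78, and 3 of the 7 other pairs had an exact permutation p under 0.05 after the same adjustment.

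The 6 probe sets of Sfpq disagreed at the lower doses. At 0.5 Gy against control they differed by 0.96 for 1423795_at, 0.41 for 1438458_a_at, 0.26 for 1423796_at, 0.03 for 1438459_x_at, -0.01 for 1439058_at and -0.25 for 1436898_at. Only 1423795_at had all 4 mice above every control mouse, as did 4.03% of the 45037 non-control probe sets. At 1.0 Gy the differences ran from -0.14 for 1439058_at to 1.02 for 1423795_at, with a median of 0.29, and none of the 6 separated from control (4.88% of all probe sets did so upwards). A level about 2-fold above control at the lower doses was seen on 1 of the 6 Sfpq probe sets.

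At 3.0 Gy 5 of the 6 Sfpq probe sets were lower by 0.50 or more. The differences from control were -1.93 for 1436898_at, -1.89 for 1423795_at, -1.61 for 1438458_a_at, -1.07 for 1438459_x_at and -0.50 for 1423796_at, the dimmest, whose level never passed the array median. In 4 of them all 3.0 Gy mice lay below all controls, and in 5 they lay below all mice of each lower dose, against 12.7% of all probe sets for control, 10.8% for 1.0 Gy and 11.6% for 0.5 Gy. The sixth, 1439058_at, stayed between 4.75 and 5.22 in all 17 mice, with a difference of -0.15 at 3.0 Gy. As the 3.0 Gy value chose the family, these counts too are a description. Of these probe sets, 1423795_at and 1423796_at come from the same source sequence, so the 6 are not independent readings.

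**Figure D2:**
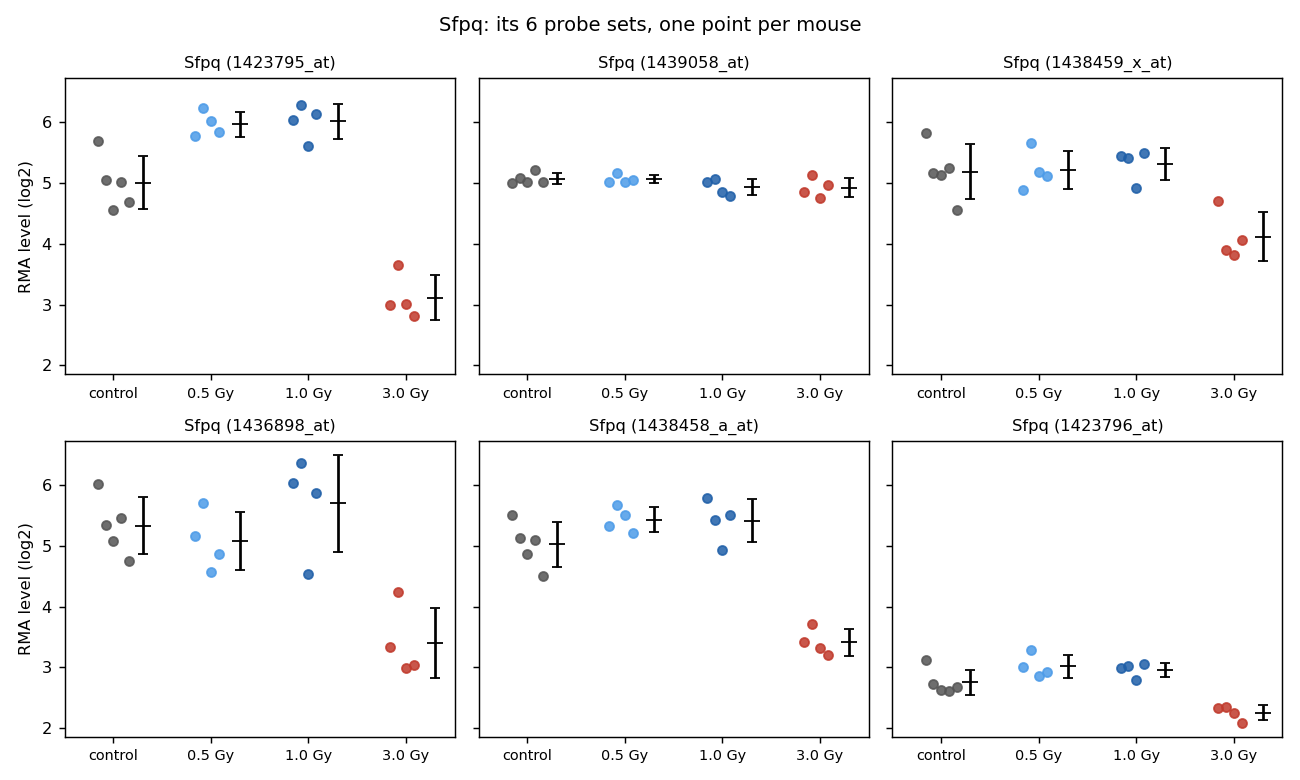
Log2 RMA level (y axis, shared) of each of the 6 Sfpq probe sets in control and at 0.5, 1.0 and 3.0 Gy (x axis), with 1 point per mouse and group mean ± SD. The 3.0 Gy mice are low in every panel but that of 1439058_at, which is flat, and the separation of 0.5 Gy from control is seen for 1423795_at.

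Single Sfpq probe sets show how the mice spread. On 1438458_a_at the level was 5.51, 5.13, 4.86, 5.10 and 4.51 in control, 5.32, 5.68, 5.51 and 5.21 at 0.5 Gy, 5.79, 5.42, 4.93 and 5.51 at 1.0 Gy, and 3.42, 3.71, 3.31 and 3.20 at 3.0 Gy. On 1436898_at it was 6.01, 5.35, 5.07, 5.46 and 4.75 in control, 5.16, 5.70, 4.58 and 4.87 at 0.5 Gy, 6.04, 6.36, 4.54 and 5.87 at 1.0 Gy, and 3.33, 4.24, 2.98 and 3.04 at 3.0 Gy. The same mice recur at the edges: control replicate 1 was the highest control, 1.0 Gy replicate 3 the lowest of its dose and 3.0 Gy replicate 2 the highest of its dose on both. The 5 brighter Sfpq probe sets had nearly equal means over the 17 arrays, from 4.83 to 5.03, so the choice of the brightest was narrow. With the quantile normalization repeated, 1439058_at (5.003) would have replaced 1423795_at (4.971) as the brightest. The differences of 1439058_at from control, in the deposited values, were -0.01, -0.14 and -0.15 at 0.5, 1.0 and 3.0 Gy.

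The 4 Nono probe sets agreed on direction at 3.0 Gy but not on size. The 3.0 Gy difference from control was -1.37 for 1415820_x_at, -0.98 for 1448103_s_at, -0.36 for 1447160_at and -0.16 for 1431239_at. In a limma fit over all 45037 probe sets the first 3 were called (adjusted p = 0.00025, 0.000192 and 0.0369) and 1431239_at was not (adjusted p = 0.370), against 16.1% of all probe sets called lower. On 1415820_x_at the level was 6.17, 5.17, 5.52, 5.47 and 4.98 in control, 5.03, 5.86, 5.25 and 5.54 at 0.5 Gy, 6.03, 5.71, 5.09 and 5.96 at 1.0 Gy, and 4.33, 4.59, 3.84 and 3.63 at 3.0 Gy. The 3.0 Gy mice lay below all others there, and the other groups overlapped. This probe set and 1448103_s_at were designed from the same source sequence, and both are of types that can bind related transcripts, so they are not independent readings.

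The remaining Nono probe sets changed less. On 1447160_at the levels were 5.85, 5.92, 5.92 and 5.95 at 0.5 Gy, against 5.99, 6.09, 6.23, 6.16 and 5.99 in control. All 4 of these 0.5 Gy mice lay below all controls by a small step of -0.18 (exact permutation p = 0.0238 before adjustment), as did 2.64% of all probe sets, and the limma adjusted p was 0.581. On 1431239_at 3 of 4 mice at 1.0 Gy lay above all controls, with a difference of 0.33 (limma, adjusted p = 0.148). None of the 4 Nono probe sets was called at either lower dose, where 4.47% (0.5 Gy) and 8.70% (1.0 Gy) of all probe sets were called.

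The second Pspc1 probe set, 1423193_at, was below the array median in all 17 arrays. It averaged 2.24 ± 0.14 at 3.0 Gy and 2.33 ± 0.28 in control (-0.09; limma, adjusted p = 0.667). The 2 Pspc1 probe sets come from the same source sequence, and the fall at 3.0 Gy is seen on the brighter one. Those are all the readings of Pspc1 used here.

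**Figure D3:**
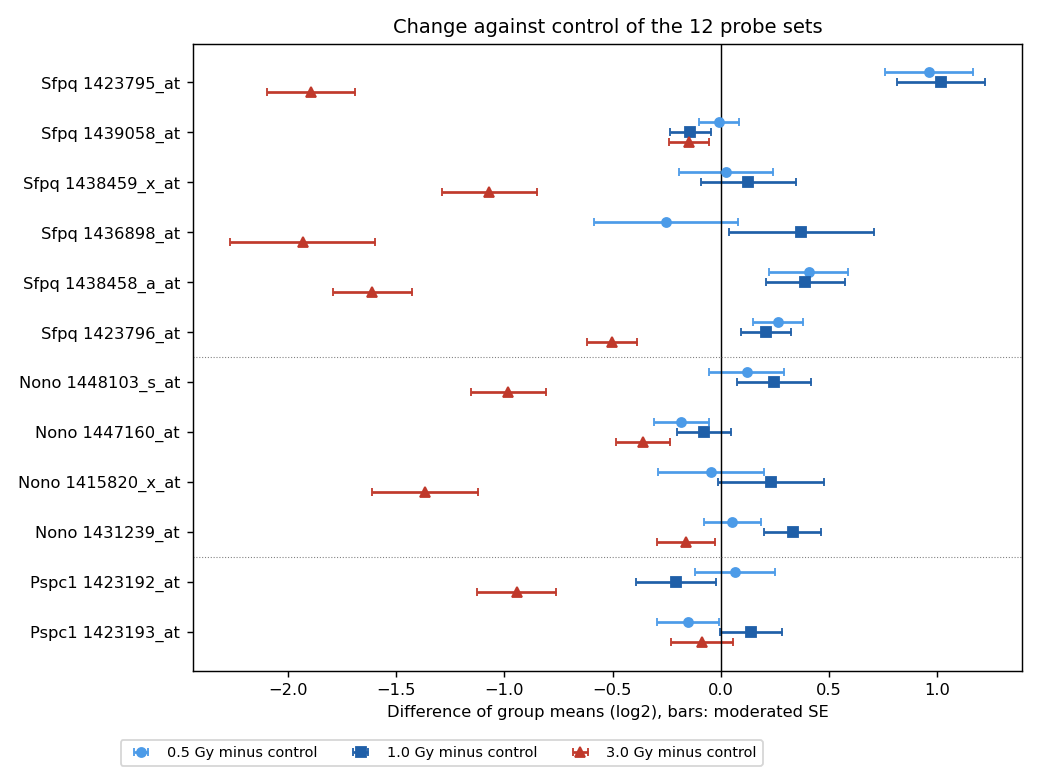
Difference of each dose from control (x axis, log2, point ± moderated SE of the fit over all probe sets) for the 12 probe sets of Sfpq, Nono and Pspc1 (y axis). The 3.0 Gy points lie left of 0 for all 12, from -1.93 to -0.09, and the points for 0.5 and 1.0 Gy lie between -0.25 and 0.41 except those of Sfpq 1423795_at.

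On their brightest probe sets the levels of the 3 genes varied together from mouse to mouse. Over the 17 arrays Pearson's r was 0.93 for Sfpq with Nono, 0.79 for Sfpq with Pspc1 and 0.83 for Nono with Pspc1, which is a description over arrays that share their dose groups. After each group's mean had been removed, r was 0.81, 0.68 and 0.60. With other probe sets of these genes, r over the 17 arrays depended on the pair. It ran from -0.33 (Sfpq 1439058_at with Pspc1 1423193_at) to 0.97 (Sfpq 1438458_a_at with Nono 1448103_s_at). Control replicate 1, 0.5 Gy replicate 2 and 3.0 Gy replicate 2 were the highest of their groups for all 3 genes. The part of each blood sample's cell makeup in this was not tested.

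**Figure D4:**
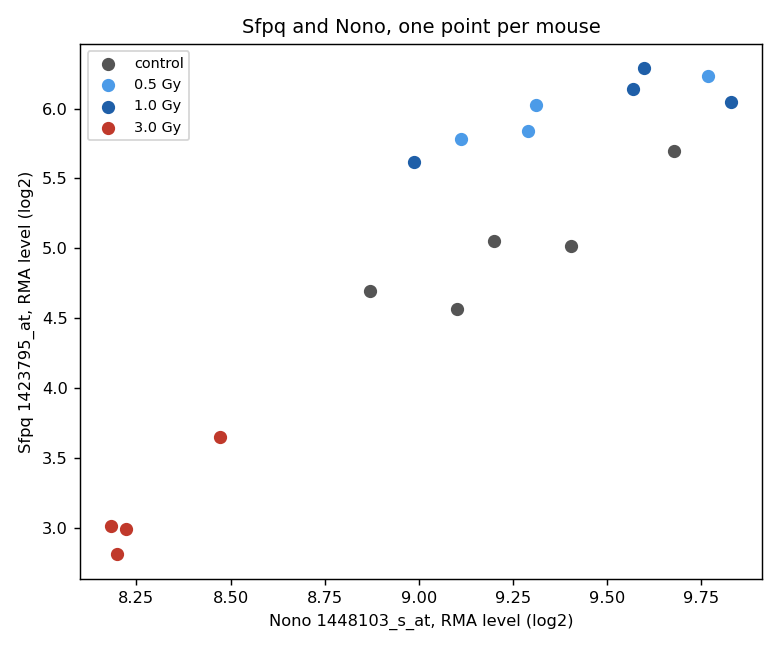
Log2 RMA level of Sfpq 1423795_at (y axis) against that of Nono 1448103_s_at (x axis), 1 point per mouse, coloured by dose. The 3.0 Gy mice lie at the lower left, apart from the others, and at a given Nono level the 0.5 and 1.0 Gy mice have more Sfpq than the controls.

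The genes whose levels followed each member most closely over the 17 arrays were named by Pearson's r. For Sfpq these were St13, a co-chaperone of Hsp70 (r = 0.984), Bcl11a, a transcription factor of B cells (0.975), Atrx, a chromatin remodeller (0.972), Rfx7, a transcription factor (0.971), and Dpysl2 (0.963). Their differences from control ran from 0.39 to 0.73 at 0.5 Gy and from -1.76 to -1.08 at 3.0 Gy. At 0.5 Gy Sfpq 1423795_at, whose values chose the family, gave 0.96, and the median of the Sfpq probe sets gave 0.15. For Nono they were Abca1, a lipid transporter (0.988), Ppp2r2a, a phosphatase subunit (0.986), Ranbp2, a nuclear pore protein (0.985), Caprin1, an RNA-binding protein (0.985), and Pcbp1, another RNA-binding protein (0.985). For Pspc1 they were Usp45, a deubiquitinase (0.938), Gfm1, a mitochondrial translation factor (0.936), Aasdh (0.929), Qk, an RNA-binding protein (0.927), and Trim5 (0.925). The counts of genes at an r of 0.9 or more were 206 for Sfpq, 734 for Nono and 33 for Pspc1.

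Among other paraspeckle components, 22 of the 34 tested fell at 3.0 Gy, as Nono and Pspc1 did, and 12 were not called. Of 39 components written down, 37 had a named probe set and 34 passed the filter. At 3.0 Gy against control 0 of the 34 rose, and the 22 that fell were 64.7% of them, beside 49.1% of all genes called and 29.2% called lower. The median difference over the 34 was -0.87 beside 0.04 over all genes. Among them Matr3, a nuclear matrix protein that binds RNA, averaged 7.22 ± 0.13 at 3.0 Gy and 8.76 ± 0.40 in control (-1.55 ± 0.20, limma adjusted p = 2.93e-06). Tardbp, which encodes the RNA-binding protein TDP-43, averaged 4.63 ± 0.20 at 3.0 Gy and 6.26 ± 0.27 in control (-1.63 ± 0.17, adjusted p = 3.3e-07). Rbm14, needed for paraspeckle assembly in human cells, averaged 4.93 ± 0.58 at 3.0 Gy and 6.53 ± 0.46 in control (-1.60 ± 0.24, adjusted p = 2.03e-05).

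Among the components with the strongest evidence of change were RNA-processing proteins. At 3.0 Gy the difference from control was -2.26 for Hnrnpr and -2.24 for Hnrnph1, proteins that bind nascent RNA, and -1.30 for Hnrnpa1, a splicing repressor. It was -2.10 for both Cpsf6 and Nudt21, which encode some of the subunits of the factor CFIm that selects 3′ ends, and -1.56 for Cirbp, a cold-inducible RNA-binding protein (limma, adjusted p from 1.04e-07 to 1.36e-06 for these 6). At 0.5 Gy 2 of 34 (5.88%) fell, Nudt21 (-0.75, limma adjusted p = 0.0247) and Cirbp (-1.10, adjusted p = 0.000413), and 0 rose. Of all 12696 genes 10.2% were called at that dose, 665 (5.24%) higher and 635 lower, so the share that fell is near the background. At 1.0 Gy 2 of 34 fell, Cirbp (-1.12, limma adjusted p = 0.000135) and Ss18l1 (-0.41, adjusted p = 0.0465), and 0 rose, where 8.49% of all genes were called lower and 8.80% higher. At an unadjusted p under 0.05 the limma counts in either direction were 6 at 0.5 Gy and 4 at 1.0 Gy. The share of all genes at that threshold is not given here, so these counts have no background. The highest values among the 34 at the lower doses, 0.48 for Tardbp at 0.5 Gy (limma, adjusted p = 0.0837) and 0.60 for Taf15 at 1.0 Gy (adjusted p = 0.231), did not pass the test.

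Neat1, the RNA scaffold on which SFPQ, NONO and PSPC1 assemble, was lower by less and was not called. On its brightest probe set, 1428083_at, it averaged 7.60 ± 0.14 at 3.0 Gy and 8.08 ± 0.32 in control (-0.49 ± 0.20, limma adjusted p = 0.0533). At 0.5 and 1.0 Gy it averaged 7.87 ± 0.28 and 7.87 ± 0.50. The second probe set, 1442881_at, averaged 5.43 ± 0.20 at 3.0 Gy and 5.25 ± 0.08 in control, in the opposite direction.

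**Figure D5:**
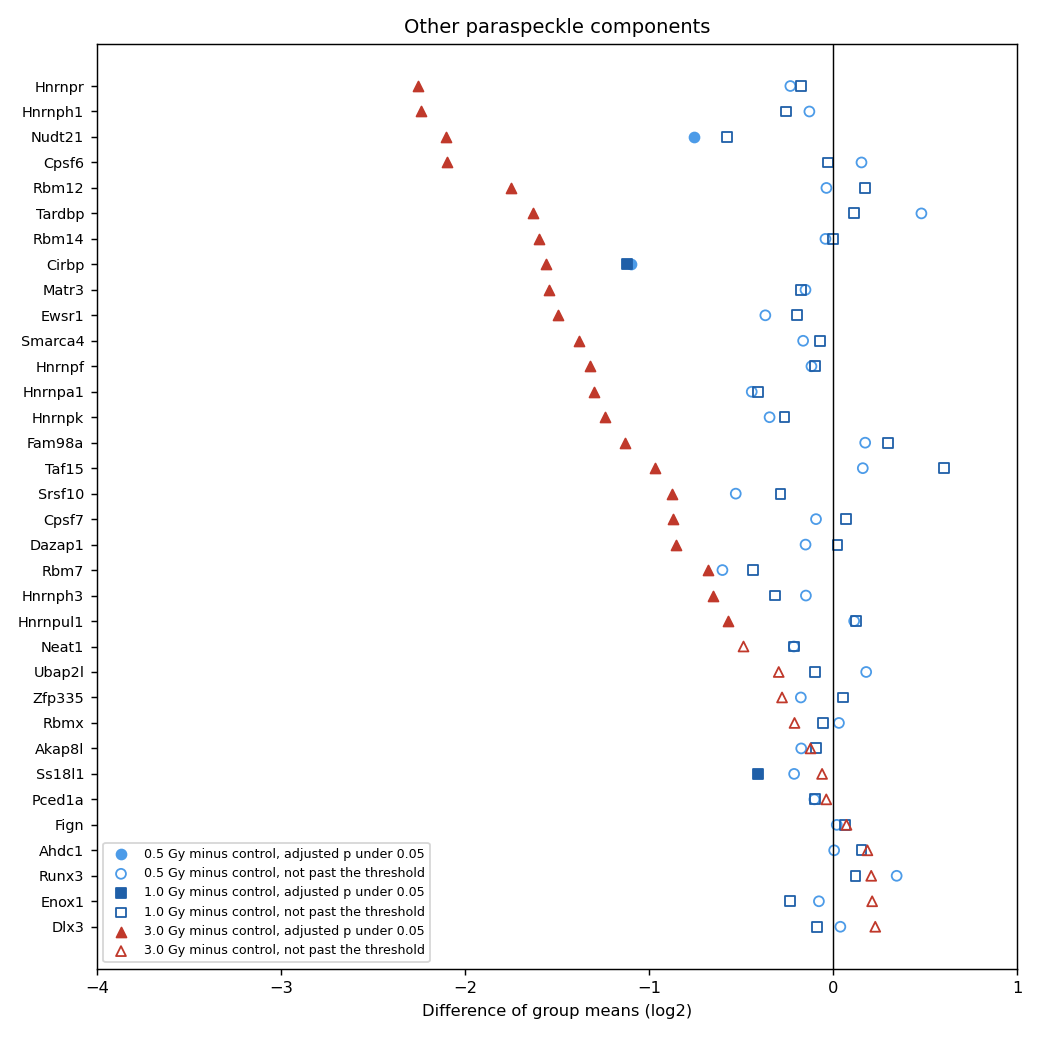
Difference from control (x axis, log2) of the 34 tested paraspeckle components other than Sfpq, Nono and Pspc1 (y axis, ordered by the 3.0 Gy value) at 0.5, 1.0 and 3.0 Gy; filled symbols passed an adjusted p under 0.05 in limma and open ones did not. The 3.0 Gy triangles are filled for 22 genes, all left of 0, while 2 genes are filled at each lower dose.

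Genes of non-homologous end joining, the repair route in which SFPQ and NONO take part, were mixed. Of 15 genes, 13 had a named probe set and 11 were tested. At 3.0 Gy 5 fell and 1 rose, so 54.5% were called beside 49.1% of all genes, with a median of -0.37 beside 0.04 over all genes. That share, in either direction, is near the background. By direction, 5 of 11 were called lower, where 29.2% of all genes were called lower. Those that fell were Rif1, which steers repair towards end joining (-1.58), Xrcc6, which encodes Ku70 (-0.67), Prkdc, the kinase recruited by Ku (-0.64), Poll, a gap-filling polymerase (-0.45), and Trp53bp1, a p53-binding protein of break repair (-0.44), with limma adjusted p from 5.72e-06 to 0.00963. Aplf, an end-joining scaffold, rose by 0.57 (limma, adjusted p = 0.00139), in a comparison in which 20.0% of all genes were called higher. At 1.0 Gy Xrcc6 (-0.46, limma adjusted p = 0.0223) and Tdp1, which frees blocked DNA ends (-0.50, adjusted p = 0.0362), fell, 18.2% of the 11 beside 17.3% of all genes. At 0.5 Gy 0 were called by limma, beside 10.2% of all genes called. At an unadjusted p under 0.05 there were 3, and the share of all genes at that threshold is not given here. Xrcc5, which encodes Ku80, was below the filter.

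Lymphocyte markers were lower at 3.0 Gy along with these 3 genes, and in bulk blood fewer cells of a type and less RNA per cell cannot be told apart. Of 9 B cell markers 8 fell at 3.0 Gy and 0 rose, where 29.2% of all genes were called lower and 20.0% higher, and their mean level per array was 4.79 to 6.13 at 3.0 Gy and 7.38 to 8.10 in control. Of 9 T cell markers 7 fell, with mean levels of 5.65 to 5.91 at 3.0 Gy and 6.67 to 7.34 in control. Platelet markers rose at every dose, 10 of 10 each time, with mean levels of 8.86 to 9.37 in control, 10.29 to 10.56 at 0.5 Gy, 10.69 to 11.09 at 1.0 Gy and 10.57 to 11.26 at 3.0 Gy, and 6 of 8 neutrophil markers rose at 3.0 Gy. Of all genes, 5.24% were called higher at 0.5 Gy and 8.80% at 1.0 Gy. Red cell markers had mean levels of 8.05 to 8.76 in control, 7.75 to 8.06 at 0.5 Gy, 7.27 to 7.74 at 1.0 Gy and 7.19 to 7.50 at 3.0 Gy, and of 8 of them 5 fell and 2 rose at 3.0 Gy. Of 9 monocyte markers 5 fell and 2 rose at 3.0 Gy, with mean levels of 6.32 to 7.002 at 3.0 Gy and 6.80 to 7.28 in control. Of 7 NK cell markers 2 fell and 0 rose, with mean levels of 5.78 to 6.06 at 3.0 Gy and 5.99 to 6.46 in control. At the lower doses, where Sfpq 1423795_at was higher, B cell markers averaged 6.99 to 7.73 at 0.5 Gy and 7.003 to 7.72 at 1.0 Gy. Their part in the results for Sfpq, Nono and Pspc1 was not tested.

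The 18S measure was high in the groups in which Sfpq was high. Over the 17 arrays its r was 0.70 with Sfpq, 0.53 with Nono and 0.33 with Pspc1, and 0.02, 0.04 and 0.27 once group means had been removed. With the 18S level as a covariate Sfpq differed from control by 0.93 ± 0.45 at 0.5 Gy, 0.97 ± 0.55 at 1.0 Gy and -1.90 ± 0.21 at 3.0 Gy. Without the covariate each of these standard errors was 0.21. The part of the 18S level in the Sfpq values was not tested. Nono kept its call at 3.0 Gy against control (-0.99, limma adjusted p = 0.000204), and so did Pspc1 (-0.97, adjusted p = 0.000338). The calls of 3.0 Gy against the lower doses were lost with this covariate: Nono gave -1.16 against 1.0 Gy (adjusted p = 0.350) and -1.05 against 0.5 Gy (adjusted p = 0.163), and Pspc1 -0.28 (adjusted p = 0.851) and -0.66 (adjusted p = 0.4004). Against control the covariate put Pspc1 at -0.31 at 0.5 Gy (adjusted p = 0.786) and -0.69 at 1.0 Gy (adjusted p = 0.558), neither called. Over all genes that fit called 0 at 3.0 against 1.0 Gy, where 4904 were called without the covariate, and 95 against 0.5 Gy, where 4292 were called. The median standard error over genes was 0.34 and 0.28 with the covariate, against 0.15 without it. Against control the covariate fit called 557 genes at 0.5 Gy, 606 at 1.0 Gy and 6277 at 3.0 Gy. Without the covariate these counts were 1300, 2195 and 6237.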

How the data were processed

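The authors deposited log2 expression values for 45101 probe sets on 17 Affymetrix mouse arrays, 1 per mouse. Per the labels' protocols, blood went straight into an RNA-stabilising tube and 200 ng of total RNA was labelled. The submitters' processing notes name RMA and R 3.3.2; settings, filters and scan batches were not given in the sources used. By equalising the distributions of the arrays, RMA would partly remove a shift shared by most transcripts, and it understates fold changes of dim probe sets. Precision is limited by the number of arrays.

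Groups followed the labels, which call the samples biological replicates (5 control mice, 4 per dose). Gene symbols came from the platform annotation, in which 34945 probe sets had 1 symbol, 932 had several, 9160 were unnamed and 64 were controls. The brightest single-symbol probe set represented a gene, and a gene was tested when it exceeded the array's 50th percentile in at least 4 arrays (12696 genes). limma 3.58.1 (lmFit, eBayes) in R 4.3.3 fitted 4 group means over all arrays, with two-sided tests, Benjamini-Hochberg adjustment over all genes and a threshold of 0.05. A second fit covered all 45037 non-control probe sets. The script was tested on simulated data. Single values were compared by exact permutation, with 126 regroupings against control. Of the members, 13 comparisons were tested, 6 each for Nono and Pspc1 and 1 for Sfpq. The test for Sfpq was on groups whose values against control the rule had used.

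The members and gene lists were chosen with earlier results of these data known. Named genes were the members, the 5 genes most correlated with each, fixed names of 2 lists and the 6 further called genes of each list with the smallest F test p; Ss18l1, Taf15, Scd2 and Rps6ka3, outside this rule, were named after their values were seen. Promoters came from RefSeq (3 of 3 members matched). The deviations of same-numbered mice of different groups had r from -0.45 to 0.49 (median 0.067, over 0.1 in 11 of 24 pairs). Those of other-numbered mice had r from -0.63 to 0.61 (median -0.025, over 0.1 in 29 of 84 pairs). These values do not settle whether the numbers pair the samples, and the main fit did not use them as pairs.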

Additional observations from a re-analysis of the deposited data

Results flagged for a closer look

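Of 48 groups of mice examined for the 12 probe sets, 5 held a mouse far from the rest of its group, where chance gives about 1 in 20. Sfpq 1438459_x_at was 4.92 in 1.0 Gy replicate 3, against 5.41 to 5.49 in the others of that dose. Sfpq 1423796_at was 3.11 in control replicate 1, against 2.61 to 2.72 in the other controls. Nono 1448103_s_at was 8.47 in 3.0 Gy replicate 2, against 8.18 to 8.22 in the others, and still lay below every mouse of the other groups. Nono 1431239_at was 4.15 in 1.0 Gy replicate 3, against 4.64 to 4.69, and 3.84 in control replicate 3, against 4.23 to 4.37. The same 1.0 Gy mouse was the lowest of its dose for the brightest probe sets of Sfpq (5.62) and Nono (8.99).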

How the results depend on the processing

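The 3.0 Gy falls of Nono and Pspc1 against control kept their direction and their call with no filter, with the quantile normalization repeated, with only the 2 groups compared, in the exact permutation test (p = 0.00794, the smallest that 126 regroupings allow) and without each replicate in turn (-1.08 to -0.87 for Nono, -1.03 to -0.78 for Pspc1). With the filter at the 75th percentile and with the median of a gene's probe sets, Pspc1 was too dim to be tested. Where a value below changed, the cause was not tested. Depth cannot be read from arrays, and Pspc1, the dim Sfpq probe set and, at 3.0 Gy, the brightest Sfpq probe set are limited by their signal.

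The value depended on the probe set. For Sfpq at 0.5 Gy against control the other probe sets gave -0.0070 (1439058_at), 0.025 (1438459_x_at), -0.25 (1436898_at), 0.41 (1438458_a_at) and 0.26 (1423796_at), at 1.0 Gy against control, in the same order, -0.14, 0.13, 0.37, 0.39 and 0.21, and at 3.0 Gy against control -0.15 for 1439058_at, -1.07 for 1438459_x_at and -0.50 for 1423796_at. At 3.0 against 1.0 Gy the 5 gave -0.0058, -1.20, -2.31, -2.00 and -0.71, and at 3.0 against 0.5 Gy -0.14, -1.09, -1.68, -2.02 and -0.77. The median of the 6 gave 0.15 at 0.5 Gy and 0.27 at 1.0 Gy against control, and -1.99 and -1.87 at 3.0 Gy against 1.0 and 0.5 Gy. The Sfpq difference of 1.0 against 0.5 Gy was -0.13 on 1439058_at, -0.016 on 1438458_a_at, -0.056 on 1423796_at and -2.47e-05 with the quantile normalization repeated, and -0.034 to 0.19 without each replicate.

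Nono at 0.5 Gy against control was -0.11 as the median of its probe sets, -0.18 on 1447160_at, -0.044 on 1415820_x_at, and -0.012 to 0.23 without each replicate; at 1.0 Gy it was -0.077 on 1447160_at. Calls of Nono at 3.0 Gy were lost on 1431239_at against control (-0.16) and 0.5 Gy (-0.21), and on 1447160_at against 1.0 Gy (-0.28) and 0.5 Gy (-0.18). Pspc1 on 1423193_at gave -0.15 at 0.5 Gy and 0.14 at 1.0 Gy against control and 0.29 at 1.0 against 0.5 Gy; at 3.0 Gy it gave -0.087 against control, -0.23 against 1.0 Gy and 0.062 against 0.5 Gy, with no call. Pspc1 at 0.5 Gy against control was -0.12 to 0.24 without each replicate. With the 18S level as a covariate, the calls of 3.0 Gy against the lower doses were lost for Nono (-1.16 and -1.05) and Pspc1 (-0.28 and -0.66), and Pspc1 against control was -0.31 at 0.5 Gy and -0.69 at 1.0 Gy. Pspc1 at 1.0 Gy against control was -0.29 to -0.038 without each replicate, the smallest without control replicate 1.

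Nono minus Pspc1 at 0.5 Gy against control was -0.072 with medians of probe sets, -0.25 and -0.033 with Nono 1447160_at and either Pspc1 probe set, -0.11 with 1415820_x_at and -0.014 with 1431239_at, and -0.0090 to 0.17 without each replicate. At 1.0 Gy it was -0.22 with 1447160_at and 1423193_at. At 3.0 Gy it was 0.071 with the quantile normalization repeated, 0.59 with 1447160_at, 0.78 with 1431239_at, -0.89 and -1.28 with 1423193_at and Nono 1448103_s_at and 1415820_x_at, and -0.098 to 0.084 without each replicate. It was called in 3 of these (exact permutation p adjusted over the 3 doses = 0.0476, 0.0238 and 0.0476).

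Fitting the replicate number as a block left Nono at -1.08 and Pspc1 at -0.98 at 3.0 Gy against control and changed no call of a member. Whether the numbers pair the samples is not known. The listed paraspeckle genes called at 0.5 Gy were 1 with the block, 1 with medians of probe sets, 5 with the quantile normalization repeated and 1 to 6 without each replicate. Over all genes the calls there were 678 higher and 530 lower with the block, and 552 and 578 of 10852 with medians. They were 741 and 761 with the normalization repeated, and 480 to 763 and 274 to 928 without each replicate, of 12696. At 1.0 Gy the listed paraspeckle genes called were 1 with the block, with no filter and with only the 2 groups, and 1 to 4 without each replicate, the highest without control replicate 2. All genes called at 1.0 Gy were 1085 higher and 947 lower with the block, and 1047 and 855 with only the 2 groups. They were 1106 and 1055 of 18193 with no filter, and 901 to 1236 and 770 to 1264 without each replicate. End-joining genes called at 1.0 Gy were 0 with the 75th-percentile filter, 0 with the 18S covariate, 1 with medians and 0 to 2 without each replicate, and at 0.5 Gy 0 to 1 without each replicate. Over all genes the 1.0 Gy calls were 1049 higher and 940 lower of 7750 with that filter. They were 285 and 321 with the covariate, and 935 and 955 of 10852 with medians. End-joining genes called at 3.0 Gy were 3 with that filter and 2 with medians, and 20 to 24 paraspeckle genes were called under every alternative run. All genes called at 3.0 Gy were 1634 higher and 3026 lower of 7750 with that filter, and 2325 and 3132 of 10852 with medians. With the quantile normalization repeated they were 3686 and 3329 of 12696, so the background of these counts also moved.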
